A study of Mus musculus with 6 samples.

Results

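Transcripts of 10 genes that are characteristic of macrophages were followed across 6 cultures of mouse embryonic fibroblasts. The genes are Ptprc, Csf1r, Adgre1, Lyz2, Tyrobp, Fcer1g, C1qa, C1qb, C1qc and Mrc1. They were chosen by name, matched by Ensembl number, and are 10 of the 51826 genes in each table. The cultures are primary connective-tissue cells from embryos on a C57BL/6 background, all with the same passage range in their labels. The groups were 3 wild-type cultures (Lztr1 +/+, numbered 10, 12 and 16) and 3 heterozygous cultures (Lztr1 +/-, numbered 11, 15 and 18). No treatment is named for either group. Lztr1 encodes an adaptor of a CUL3 ubiquitin ligase, and the study compared messenger RNA between the genotypes. How the Lztr1 allele was made is not stated. The labels do not tie a culture to an embryo, so each p-value is set against culture-to-culture spread alone, and part of that may be technical.

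Macrophages are phagocytes of the blood lineage that settle in embryonic tissue before birth and clear dying cells. They depend on signals through the receptor CSF1R, whose ligand CSF1 is made by fibroblasts and other stromal cells, and they are a known minor cell type in early-passage cultures of embryonic tissue. The genes fall into 4 roles. Csf1r, Ptprc, Adgre1 and Mrc1 encode surface receptors, Tyrobp and Fcer1g encode small signalling adaptors, C1qa, C1qb and C1qc encode the chains of complement component C1q, and Lyz2 encodes the lysozyme of macrophages.

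The genes lie on 7 chromosomes in mm10, and 3 of them form a cluster. C1qb (chromosome 4, 136880129 to 136886187), C1qc (136889804 to 136893065) and C1qa (136895917 to 136898803) lie side by side on the minus strand within 18675 bases, each with 3 exons. Fcer1g (171229572 to 171234365) and Ptprc (138062861 to 138175708) are both on the minus strand of chromosome 1. Mrc1 lies on the plus strand of chromosome 2 (14229392 to 14332057), Tyrobp on the plus strand of chromosome 7 (30413760 to 30417585) and Adgre1 on the plus strand of chromosome 17 (57358691 to 57483527). Lyz2 lies on the minus strand of chromosome 10 (117277331 to 117282321), 5475 bases from its paralog Lyz1, and the longest transcripts of the pair are identical at 1211 of 1262 aligned bases (96.0%).

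Bases upstream of 5 genes are shown because the results below turn on genes that move together, apart from Mrc1, and on the paralogs Lyz2 and Lyz1. The RefSeq promoter table for GRCm38.p6, the same assembly as mm10, held 6 of the 10 genes. PU.1, encoded by Spi1, is a lineage factor of macrophages that binds sites with the core GAGGAA, and capitals mark each match to GAGGAA on either strand (TTCCTC on the strand shown). The runs are given 5′ to 3′ in the direction of the gene and leave out bases that the annotation counts as transcribed.
C1qb, chr4:136886201-136886450, minus strand: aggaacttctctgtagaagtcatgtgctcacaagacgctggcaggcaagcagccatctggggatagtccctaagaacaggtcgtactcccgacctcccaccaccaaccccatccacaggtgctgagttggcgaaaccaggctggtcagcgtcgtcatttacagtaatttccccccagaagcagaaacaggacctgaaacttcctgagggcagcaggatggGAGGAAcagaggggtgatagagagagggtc
C1qc, chr4:136893066-136893164, minus strand: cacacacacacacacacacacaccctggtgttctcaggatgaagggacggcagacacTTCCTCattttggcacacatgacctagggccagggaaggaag
Mrc1, chr2:14229164-14229391, plus strand: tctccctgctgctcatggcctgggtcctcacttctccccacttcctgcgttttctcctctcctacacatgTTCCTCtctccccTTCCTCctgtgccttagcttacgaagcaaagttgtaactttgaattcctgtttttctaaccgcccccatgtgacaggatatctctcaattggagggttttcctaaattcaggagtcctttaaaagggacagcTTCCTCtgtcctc
Lyz2, chr10:117282322-117282522, minus strand: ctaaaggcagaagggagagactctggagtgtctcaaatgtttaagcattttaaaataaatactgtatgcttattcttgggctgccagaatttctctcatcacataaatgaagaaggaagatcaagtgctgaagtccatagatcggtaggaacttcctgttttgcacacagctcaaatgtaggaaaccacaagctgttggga
Lyz1, chr10:117292869-117293118, minus strand: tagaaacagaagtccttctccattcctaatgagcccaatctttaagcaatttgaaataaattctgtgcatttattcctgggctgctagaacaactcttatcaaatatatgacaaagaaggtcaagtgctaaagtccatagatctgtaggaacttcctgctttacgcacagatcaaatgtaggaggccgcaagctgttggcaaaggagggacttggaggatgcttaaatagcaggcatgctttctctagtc

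In the 250 bases before the RefSeq start, GAGGAA was found for 4 of the 6 genes with an entry (Ptprc in 1 of its 2 windows, C1qb, C1qc and Mrc1), and 23.3% of 32851 windows of the same length held it. Mrc1 had 3 matches and the others 1 each. The longer form GAGGAAGT, which contains GAGGAA, was found for C1qc alone, against 2.44% of windows. TTGCNNAA (9.56% of windows), TGANTCA (6.75%) and the interferon-stimulated response element (2.98%) had no match in these windows for any of the 6 genes, and TATAAA had a match for Ptprc alone, against 12.4% of windows. All motifs were searched on both strands, and a match is a description of the letters only. Upstream of Lyz2 and Lyz1, 151 of 199 aligned bases were identical (75.9%).

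All 10 genes were detected in every culture. Together they made up 380 and 378 TPM (transcripts scaled to a common total, a level corrected for gene length) in wild-type cultures 10 and 12 and 485 TPM in 16. In the heterozygous cultures the sum was 299 TPM in 11, 529 TPM in 15 and 534 TPM in 18. The lowest and the highest sum were therefore both heterozygous, 1.79-fold apart. These sums are 0.0299% to 0.0534% of all transcripts. In bulk RNA fewer macrophages and less of these transcripts per macrophage cannot be told apart.

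Library totals of expected counts ran from 11025286 to 21885101, and heterozygous culture 11, with the lowest sum, was the deepest. All 10 genes passed the low-count filter, with 71.0 to 1902 expected counts per gene and culture. Lztr1 itself stood at 64.0, 63.6 and 56.7 TPM in wild-type and at 35.9, 28.3 and 32.2 TPM in heterozygous cultures (log2 difference -1.01, SE 0.066, adjusted p = 0.00457 by edgeR), so each culture matched its label. Fibroblast markers were high throughout, with 13 of 13 tested and Col1a1, a chain of type I collagen, at 2297 to 3356 TPM.

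**Figure D1:**
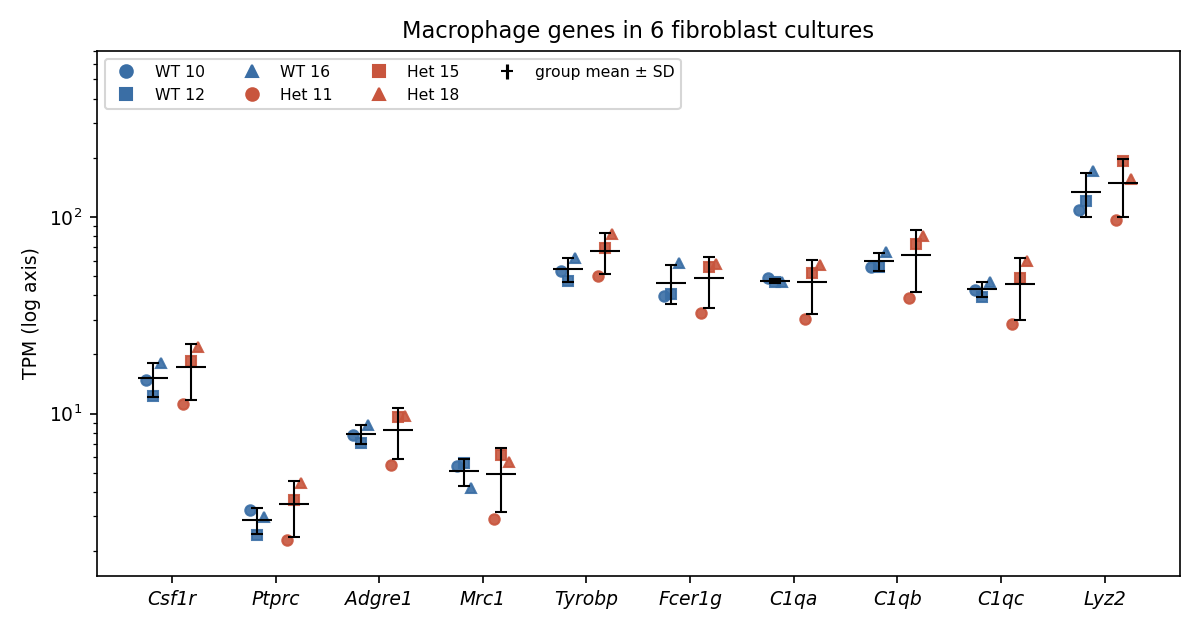
Level in TPM on a log axis of the 10 macrophage genes in 3 wild-type (blue) and 3 heterozygous (red) cultures, with symbols for single cultures and black bars for the group mean ± SD. Lyz2 is the highest and Ptprc the lowest, and heterozygous culture 11 (red circle) lies below the other 2 heterozygous cultures for every gene.

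Lyz2 was the most abundant of the 10 genes, at 141 ± 37.8 TPM (SD over 6 cultures). It stood at 108, 121 and 171 TPM in wild-type 10, 12 and 16 and at 96.8, 192 and 156 TPM in heterozygous cultures 11, 15 and 18. Cultures 16, 15 and 18 were high and 10, 12 and 11 low, and the genotypes overlapped. Its paralog Lyz1, the lysozyme of intestinal Paneth cells, was listed at 0 in 5 cultures and at 1 count in wild-type culture 16. On this estimate the reads of the pair were assigned to Lyz2.

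The C1q chains, which assemble into the first component of the classical complement pathway, were next to each other in level. C1qb stood at 55.9, 55.9 and 66.6 TPM in wild-type 10, 12 and 16 and at 38.6, 73.3 and 80.3 TPM in heterozygous cultures 11, 15 and 18. C1qa stood at 48.7, 46.6 and 46.7 TPM in the same wild-type cultures and at 30.2, 52.0 and 57.1 TPM in the heterozygous ones. C1qc stood at 42.6, 39.4 and 46.7 TPM and at 28.5, 49.0 and 60.0 TPM. For all 3 chains heterozygous culture 11 was below every wild-type culture and heterozygous 15 and 18 above every wild-type culture. The ratio of C1qc to C1qb was nearly fixed, and that of C1qa to C1qb varied more. C1qc was 0.720 ± 0.0347 of C1qb (SD, n = 6), a coefficient of variation of 4.82%, where counting alone gives 7.15%. C1qa was 0.768 ± 0.0726 of C1qb, with 9.45% against 7.39% from counting. The ratio of C1qa to C1qb was 0.873 and 0.833 in wild-type 10 and 12 and 0.782 in heterozygous 11. It was lower in wild-type 16 (0.702) and in heterozygous 15 and 18 (0.709 and 0.712).

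The adaptors Tyrobp (DAP12) and Fcer1g (the common gamma chain), which couple activating receptors to the kinase SYK, reached the same range. Tyrobp stood at 53.4, 47.0 and 62.2 TPM in wild-type 10, 12 and 16 and at 50.0, 69.4 and 81.5 TPM in heterozygous cultures 11, 15 and 18. Here wild-type culture 12, not heterozygous 11, was the lowest. Fcer1g stood at 39.9, 40.8 and 58.3 TPM and at 32.4, 55.8 and 57.7 TPM. Its highest value was in wild-type culture 16. The ratio of Tyrobp to Fcer1g ran from 1.07 in wild-type 16 to 1.54 in heterozygous 11, a coefficient of variation of 13.5% against 10.5% from counting. The genes of other adaptors of this kind were low, with Hcst (DAP10), 126 bases from Tyrobp, at 0 to 1.40 TPM and Cd247 at 5.99 counts over all 6 cultures.

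Among the receptors, Csf1r, the receptor of the macrophage growth factor CSF1, was the highest. The gene lies on the plus strand of chromosome 18 (61100598 to 61132149) and overlaps Hmgxb3 on the other strand. Csf1r was the only 1 of the 10 genes with a count that was not whole, and which gene or transcript shared its reads was not tested. It stood at 14.9, 12.3 and 18.2 TPM in wild-type 10, 12 and 16 and at 11.2, 18.6 and 21.9 TPM in heterozygous cultures 11, 15 and 18. The order of the cultures matched that of C1qc in TPM. Adgre1, which encodes the macrophage antigen F4/80, stood at 7.78, 7.08 and 8.78 TPM and at 5.48, 9.62 and 9.71 TPM. Ptprc, which encodes the pan-leukocyte phosphatase CD45, stood at 3.23, 2.41 and 2.99 TPM and at 2.29, 3.65 and 4.45 TPM. Both again had heterozygous 11 lowest and heterozygous 18 highest, and the genotypes overlapped. The ratio of Ptprc to Csf1r was 0.197 ± 0.0177 (SD, n = 6), and that of Adgre1 to Csf1r was 0.506 ± 0.0450, a variation of 8.90% where counting alone gives 8.44%.

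Mrc1 followed a different course. It encodes the mannose receptor CD206, which is found on many tissue macrophages and on some endothelial cells. It stood at 5.43, 5.64 and 4.18 TPM in wild-type 10, 12 and 16 and at 2.91, 6.17 and 5.68 TPM in heterozygous cultures 11, 15 and 18. Wild-type culture 16, which was high for Lyz2, Csf1r and Fcer1g, was the second lowest for Mrc1. Its share of the summed level of the 10 genes ran from 0.861% in wild-type 16 to 1.49% in wild-type 12, the widest spread of the 10 shares (coefficient of variation 21.6%, against 4.93% to 13.6% for the others). The ratio of Mrc1 to Csf1r ran from 0.230 in wild-type 16 to 0.459 in wild-type 12, a variation of 27.1% where counting gives 8.37%.

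Markers of endothelium, where Mrc1 can also be expressed, were present at low levels. Of 14 genes 12 were tested, their summed level was 49.9 to 56.5 TPM in wild-type and 51.5 to 66.1 TPM in heterozygous cultures, and Flt1 alone reached 24.1 to 44.2 TPM. Pecam1 was at 0.890 to 3.08 TPM, Cdh5 at 0.770 to 2.87 TPM and Stab2 at 20 counts over the 6 cultures. Their part in the pattern of Mrc1 was not tested.

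The order of mean levels was Lyz2, C1qb, Tyrobp, Fcer1g, C1qa, C1qc, Csf1r, Adgre1, Mrc1 and Ptprc. Within single cultures, the order of neighbours held in 6 of 6 cultures for every step except 3, C1qb over Tyrobp (4 of 6), Fcer1g over C1qa (4 of 6) and C1qa over C1qc (5 of 6). The levels fell into 3 ranges, Lyz2 at the top, C1qb (61.7 ± 14.8 TPM) to C1qc (44.4 ± 10.5 TPM), and Csf1r (16.2 ± 4.11 TPM, SD over 6 cultures) and below. Lyz2 ranked above 92.6% and Ptprc (3.17 ± 0.807 TPM) above 20.4% of the 14652 tested genes by mean TPM.

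No genotype difference passed the test in any of the 10 genes. The question was whether heterozygous cultures carry more or less macrophage RNA than wild-type ones. Of the 10 genes 0 passed at an adjusted p under 0.05 in the edgeR quasi-likelihood test, adjusted by Benjamini-Hochberg over all tested genes, where 0.00683% of the 14652 genes passed, a single gene that was Lztr1. At an unadjusted p under 0.05 there were also 0 of 10, against 12.2% of all genes, and DESeq2 called 0. Its filtering of low counts left some of the 10 with no adjusted p, among them Adgre1 and Fcer1g. Their unadjusted p by DESeq2 was 0.732 and 0.719. The groups overlapped for 10 of 10 genes, where they did not overlap for 17.7% of all genes (7.75% higher and 9.97% lower in heterozygous cultures). The fitted difference was above 0 for 8 of 10 genes, against 49.6% of all genes, and the median was 0.10 on the log2 scale, against -0.00 over all tested genes.

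The largest differences were those of Ptprc and Tyrobp. In CPM (counts scaled to library size with a composition factor), Ptprc averaged 7.51 ± 1.07 over the 3 wild-type and 9.45 ± 3.27 over the 3 heterozygous cultures (mean ± SD). Its log2 difference was 0.31 (SE 0.27, 95% interval -0.31 to 0.92, adjusted p = 0.664 by edgeR). Tyrobp averaged 12.7 ± 2.39 and 15.9 ± 3.68 CPM, a difference of 0.31 (SE 0.20, interval -0.16 to 0.77, adjusted p = 0.558). For the C1q chains the differences were -0.03 for C1qa (SE 0.21), 0.11 for C1qb (SE 0.25) and 0.09 for C1qc (SE 0.24). For Lyz2 it was 0.17 (SE 0.27), for Csf1r 0.15 (SE 0.25), for Fcer1g 0.08 (SE 0.26), for Adgre1 0.07 (SE 0.23) and for Mrc1 -0.07 (SE 0.29). The 95% intervals of the 10 ratios reach from 0.606 to 1.90, each bound from a different gene (Mrc1 and Ptprc). A difference anywhere within a gene's own interval remains compatible with these data. For C1qa the interval ran from 0.700 to 1.38. Heterozygous cultures spread more widely than wild-type ones for every gene, as with C1qa, where wild-type cultures gave 24.1 ± 1.08 CPM and heterozygous ones 24.0 ± 7.36 CPM. With 3 cultures a group this difference in spread was not tested.

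**Figure D2:**
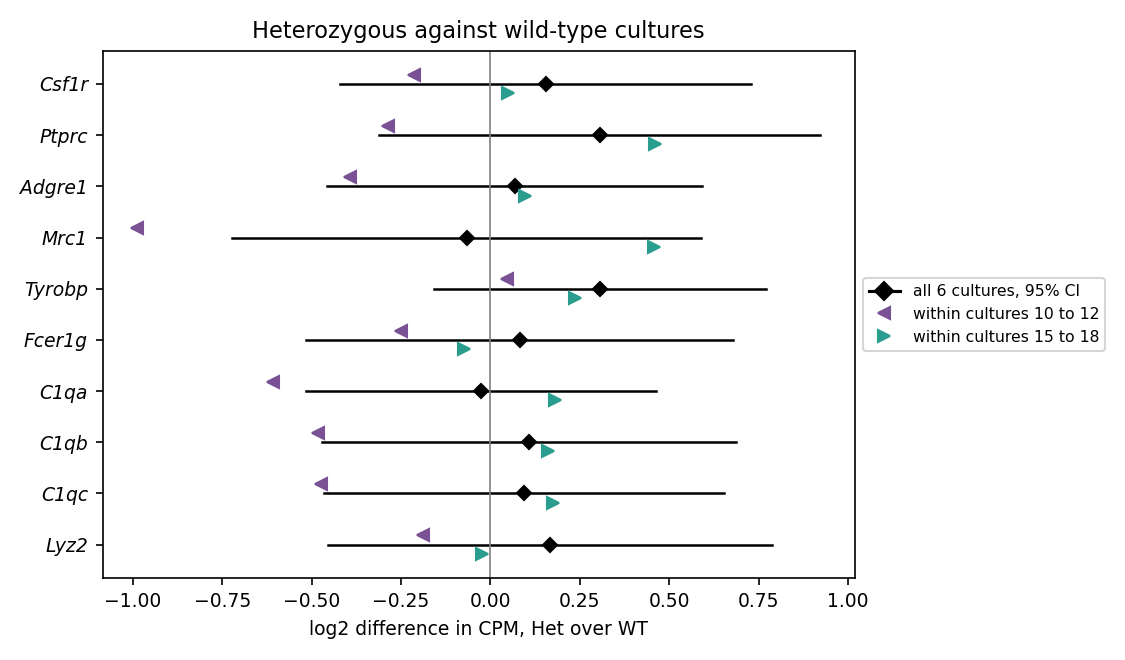
Log2 difference of heterozygous over wild-type cultures for each macrophage gene: black diamonds and lines are the fit over 6 cultures with its 95% interval, left-pointing triangles the difference within cultures 10 to 12, right-pointing triangles that within cultures 15 to 18. All 10 intervals include 0, and the triangles lie on opposite sides of 0 for 7 of the 10 genes.

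Leaving out cultures turned the sign of several of these differences. They lay below 0 without heterozygous culture 15 for Adgre1 (-0.08), C1qb (-0.02), Fcer1g (-0.06) and Lyz2 (-0.09), and above 0 without heterozygous culture 11 for C1qa (0.22) and Mrc1 (0.25). In the 4 cultures whose accessions form the first block (10 and 12 against 15 and 18) 6 of the 10 genes passed as higher, where 5.45% of all genes did, with Lyz2 at 0.67 (adjusted p = 0.0170 by edgeR). In that subset genotype and the run of culture numbers described next cannot be told apart.

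By number the cultures fall into 10 to 12 and 15 to 18, called runs here, and each run holds both genotypes. The labels do not call them batches, and the runs were compared after the values per culture had been seen. In CPM every culture of 15 to 18 lay above every culture of 10 to 12 for 9 of the 10 genes, all but Mrc1, where 10.7% of all genes did so. In TPM this held for 7 of the 10, since Ptprc and C1qa were lower in wild-type culture 16 than in wild-type 10. With genotype in the fit the median difference between the runs was 0.60 on the log2 scale over the 10 genes, against -0.00 over all tested genes. Lyz2 was 1.70-fold higher in 15 to 18 (log2 difference 0.77, SE 0.10), Fcer1g 1.66-fold (0.73, SE 0.10), Csf1r 1.61-fold (0.69, SE 0.12) and C1qb 1.60-fold (0.68, SE 0.14). Of the 10 genes 9 had an unadjusted p under 0.05, all higher, against 7.08% of all genes in that direction. None passed after adjustment over all genes by edgeR, with adjusted p from 0.104 for Lyz2 to 0.538 for Mrc1, where 0.0478% of all genes passed. Without heterozygous culture 11 the count of 9 was lower, but that fit rests on wild-type 16 alone against wild-type 10 and 12. Without wild-type culture 16 it rests on heterozygous 15 and 18 against heterozygous 11 alone. In log2 CPM the median differences in these 2 comparisons were 0.34 and 0.85. Calls after adjustment are not given for these 2 fits, since each rests on a single culture on 1 side. Among the other fits Lyz2 passed without heterozygous culture 18, where 0.0994% of all genes passed. None of the 10 passed without wild-type 10, wild-type 12 or heterozygous 15.

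Within each genotype the direction held for most genes in CPM. Wild-type culture 16 lay above the mean of wild-type 10 and 12 for 9 of 10 genes, by 0.07 for C1qa to 0.68 for Lyz2 on the log2 scale, and below it for Mrc1 (-0.31). Heterozygous cultures 15 and 18 lay above heterozygous 11 for 10 of 10 genes, by 0.60 for Tyrobp to 1.14 for Mrc1. In TPM heterozygous culture 11 was the lowest of the 6 for 9 genes and heterozygous 18 the highest for 7.

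The median genotype difference lay on opposite sides of 0 within the runs. Within cultures 10 to 12 heterozygous 11 was below the wild-type mean for 9 of 10 genes, with a median of -0.34 and with Mrc1 at -0.99. Within 15 to 18 the heterozygous cultures were above wild-type 16 for 8 of 10 genes, with a median of 0.17, and Lyz2 (-0.02) and Fcer1g (-0.07) were the exceptions. Over all tested genes 50.1% and 52.0% were below 0 in these sets, and 1 group in each set is a single culture. A term for the difference between the runs in the genotype difference was 1.45 for Mrc1 (SE 0.20, adjusted p = 0.0535 by edgeR), 0.79 for C1qa (SE 0.16, adjusted p = 0.131) and 0.65 for C1qb (SE 0.13, adjusted p = 0.131). It passed for 0 of the 10 genes and for 0.328% of all genes. At an unadjusted p under 0.05 there were 5 of the 10 (Mrc1, C1qb, C1qa, C1qc and Adgre1), against 13.4% of all genes. That term rests on 1 culture in 2 of its 4 cells.

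**Figure D3:**
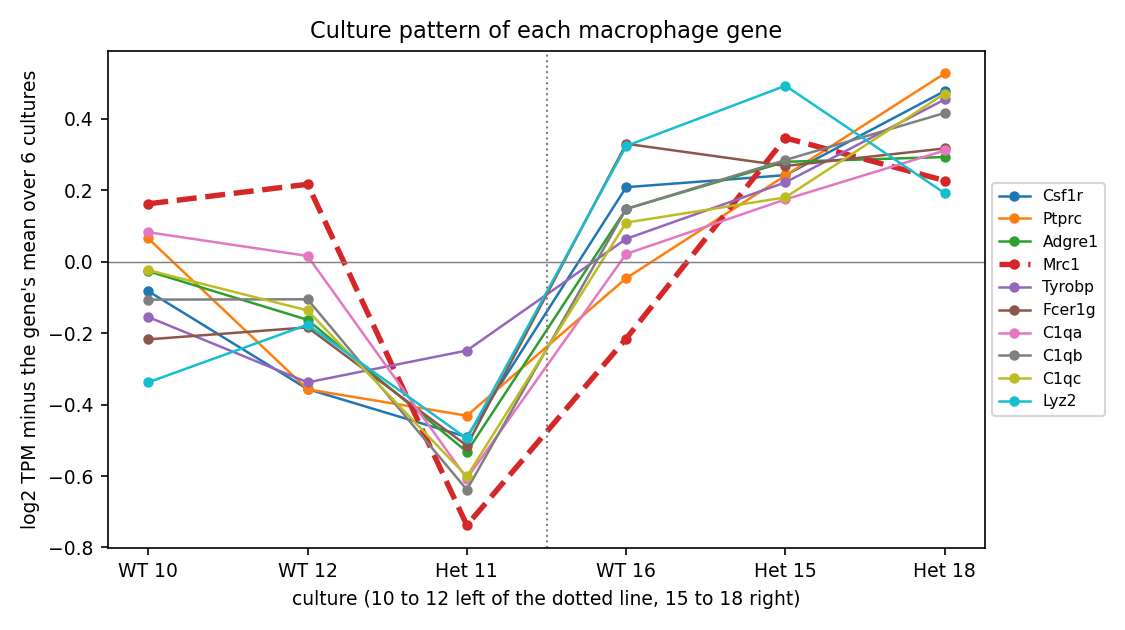
Log2 TPM of each macrophage gene minus its own mean over the 6 cultures, with cultures 10 to 12 left and 15 to 18 right of the dotted line. Heterozygous culture 11 is lowest for 9 of the 10 genes and heterozygous 18 highest for 7, while Mrc1 (dashed) is above its mean in wild-type 10 and 12 and below it in wild-type 16.

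The 10 genes varied together over the cultures. Each differed 1.73-fold to 2.12-fold between its lowest and highest culture in TPM, and its coefficient of variation in CPM was 19.5% to 29.0%, where counting alone gives 2.84% (Lyz2) to 9.60% (Ptprc). Pearson's r of log2 CPM was above 0 for 45 of 45 pairs of genes, with a median of 0.878. With Benjamini-Hochberg adjustment over the 45 pairs, 21 passed by an exact two-sided permutation test of r and 19 by that of Spearman's rho. The points share the same 6 libraries and their scaling, so the pairs are not independent of each other.

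The C1q chains were close to each other and to Adgre1. C1qb and C1qc had r = 0.984 and rho = 1 (exact permutation p = 0.00139 and 0.00278, n = 6), and r was 0.963 without the 2 cultures farthest from the median of C1qb. Adgre1 and C1qb had r = 0.986 and rho = 0.943 (exact permutation p = 0.00278 and 0.0167), and r was 0.976 without the 2 farthest cultures. Lyz2 and Fcer1g had r = 0.959 and rho = 0.943 (exact permutation p = 0.0181 and 0.0167), and r was 0.980 without them. Mrc1 was the least alike, with a median r of 0.667 over its 9 pairs and r = 0.405 with Tyrobp (rho = 0.543, exact permutation p = 0.483 and 0.297). Its r of 0.914 with C1qa became 0.435 without the 2 cultures farthest from the median, so that relation rests on them. Without the 2 farthest cultures r stayed above 0 for 44 of 45 pairs, with a median of 0.865.

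No relation of the level to library depth passed a test. The log2 library total and the log2 summed TPM of the 10 genes had r = -0.675 and rho = -0.486 (exact two-sided permutation p = 0.122 and 0.356, n = 6), and r was -0.574 without heterozygous 11 and 15. The part of depth in the differences between cultures was not tested.

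Of the genes ranked, the 4 most like the 10 were other macrophage or myeloid genes. The ranking covered 12680 genes with a mean of at least 1 TPM and left out the 10 genes, predicted genes and pseudogenes. The highest r with the summed level of the 10 genes was that of Itgam (0.992), a subunit of complement receptor CR3. The macrophage protease gene Ctss (0.989), the NADPH oxidase gene Ncf1 (0.984) and the Fc receptor gene Fcgr3 (0.981) followed. The others among the first 10 were Cep83, Ripk3, the chemokine receptor gene Ccr1, Ifi207, Pacsin2 and Tspan8, with r from 0.970 to 0.975. Itgam stood at 4.51, 3.99 and 6.01 TPM in wild-type 10, 12 and 16 and at 3.08, 7.08 and 6.82 TPM in heterozygous 11, 15 and 18. Ctss stood at 48.3, 45.1 and 60.5 TPM and at 32.8, 64.8 and 72.1 TPM. Both again had heterozygous 11 lowest and cultures 15 to 18 highest. Over all tested genes the median r was -0.13 and 0.901% were above 0.9.

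The 10 genes were accompanied by a wide set of myeloid transcripts. Of 106 other genes listed as macrophage receptors, resident macrophage genes, myeloid signalling genes and myeloid transcription factors, 91 were tested, 75 reached 1 TPM in all cultures and 1 had no count. In the genotype comparison 0 of the 91 passed by edgeR. At an unadjusted p under 0.05, 5 were higher and 4 lower, 9 of 91 where 12.2% of all genes had such a p, and the median log2 difference was 0.25, against -0.00 over all tested genes. Without wild-type culture 16, 2 passed, 1 in each direction, where 5.93% of all genes passed.

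Of 31 tested surface receptor genes 30 were higher in cultures 15 to 18 and the median r with the 10 genes was 0.805. The range was wide, with r above 0 for 29 of the 31 and at -0.04 for Cd300a and -0.0008 for P2ry12. It was 0.12 for Mertk, a receptor for dying cells, 0.22 for Clec7a, a receptor for fungal glucans, and 0.34 for Fcgr4. The receptor gene Cd68 stood at 12.95 to 26.8 TPM, Sirpa, encoding the receptor of the signal CD47, at 20.9 to 35.4 TPM and Fcgr3 at 10.4 to 22.3 TPM. The genotype differences with the smallest p were those of the endotoxin receptor gene Tlr4 (0.57, SE 0.17, adjusted p = 0.317 by edgeR) and Fcgr4 (0.79, SE 0.32, adjusted p = 0.384). The scavenger receptor gene Cd163 had 14 counts and Vsig4 17 counts over the 6 cultures.

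Signalling and cytoskeleton genes of blood cells were the most uniform list. Of 35 tested genes 35 were higher in cultures 15 to 18, 27 of them with runs that did not overlap (10.7% of all genes were higher without overlap), and 16 had r above 0.9. The oxidase subunit gene Cyba (146 to 175 TPM) was high and varied less than Ctss (32.8 to 72.1 TPM). Among genotype differences the phospholipase gene Plcg2 had the smallest p (0.48, SE 0.20, adjusted p = 0.397 by edgeR).

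Genes listed for resident macrophages and as transcription factors divided. Spi1 stood at 7.28, 5.40 and 10.3 TPM in wild-type 10, 12 and 16 and at 6.83, 13.2 and 15.95 TPM in heterozygous 11, 15 and 18, with r = 0.855. Irf8, a partner of PU.1, had r = 0.836, and Stab1, a scavenger receptor gene, had r = 0.878. Others went the opposite way, with r = -0.743 for Id3 (268 to 371 TPM) and r = -0.754 for Igf1 (37.1 to 53.9 TPM), genes that fibroblasts also express. Over the 16 tested transcription factors the median r was 0.02. In the genotype comparison Nr1h3, a factor gene, differed by 1.28 (SE 0.40, adjusted p = 0.321 by edgeR). The smallest p among the resident genes were those of Gas6 (-0.32, SE 0.086, adjusted p = 0.313) and Pf4 (0.77, SE 0.30, adjusted p = 0.372). Lyve1 had 13 and Timd4 14 counts over the 6 cultures.

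**Figure D4:**
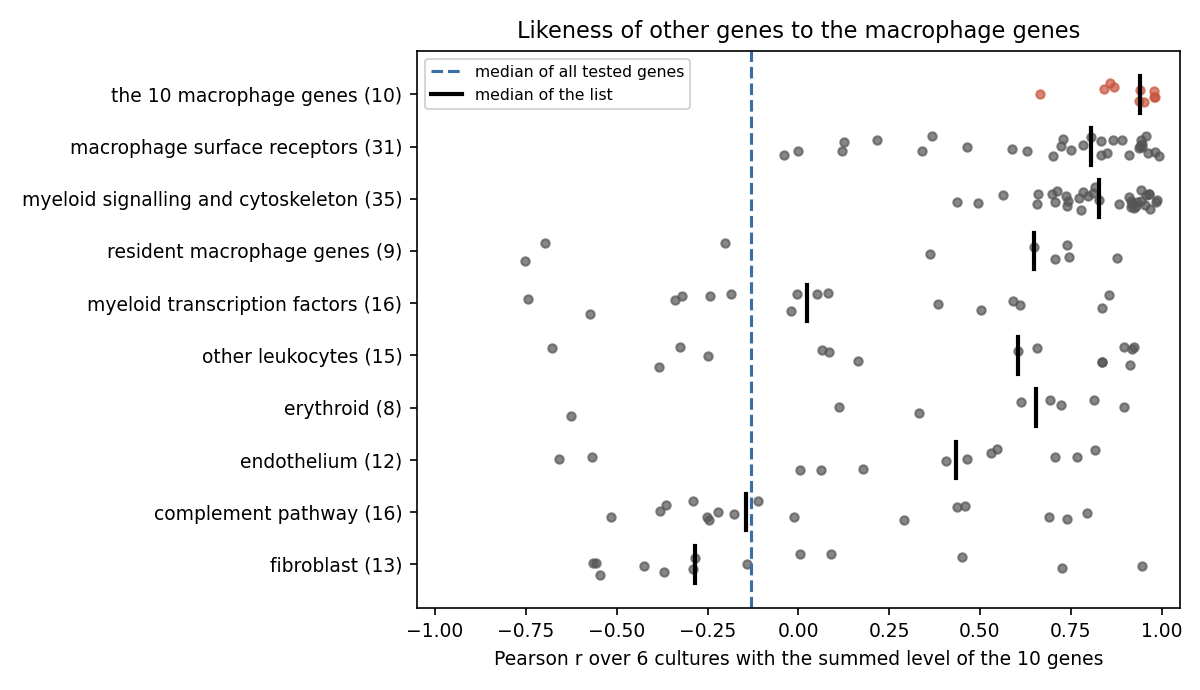
Pearson's r over the 6 cultures between each tested gene of a list and the summed TPM of the 10 macrophage genes, which are themselves in the top row and part of that sum; vertical bars are list medians and the dashed line is the median of all tested genes. Receptor and signalling lists centre on 0.805 and 0.828, the fibroblast list on -0.28.

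The growth factor that CSF1R binds was abundant and followed the runs as well. Csf1 stood at 70.8, 71.2 and 93.7 TPM in wild-type 10, 12 and 16 and at 82.8, 112 and 123 TPM in heterozygous cultures 11, 15 and 18. It was higher in cultures 15 to 18 by 0.52 on the log2 scale (SE 0.052, adjusted p = 0.0386 by edgeR). The Csf1 call was lost without wild-type culture 10 (adjusted p = 0.267), wild-type 12 (0.196), heterozygous 15 (0.0875) or heterozygous 18 (0.0548), with differences of 0.50 to 0.53 in the 6 fits. In the genotype comparison it differed by 0.43 (SE 0.18, adjusted p = 0.400 by edgeR). Il34, the other CSF1R ligand gene, was at 0.930 to 2.20 TPM, and Csf2 had 1 count over the 6 cultures.

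Relatives of the 10 genes gave a median r near 0. Of 21 such genes 13 were tested, 4 of them were higher in cultures 15 to 18 and the median was 0.09. Mrc2, the fibroblast paralog of Mrc1 that encodes the collagen receptor Endo180, stood at 99.5, 99.9 and 72.5 TPM in wild-type 10, 12 and 16 and at 73.6, 68.0 and 74.1 TPM in heterozygous cultures 11, 15 and 18. It differed by -0.32 between the genotypes (SE 0.093, adjusted p = 0.313 by edgeR). Ly75, another mannose receptor relative, differed by 0.46 (SE 0.12, adjusted p = 0.313). Adgre5, a relative of Adgre1, was at 61.0 to 82.9 TPM, and Adgre4 had 5 counts.

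Other complement genes were less alike than C1q. Of 20 genes 16 were tested, 9 were higher in cultures 15 to 18, and the median r was -0.14. The genes of the proteases that bind C1q, C1ra and C1s1, were at 2.59 to 4.26 and 3.45 to 7.70 TPM, with r of -0.36 and -0.01. Serping1, the gene of their inhibitor, was at 17.6 to 29.1 TPM. Masp1, a protease gene of the lectin pathway, differed by 0.43 between the genotypes (SE 0.13, adjusted p = 0.321 by edgeR).

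Markers of further blood cells were mixed. Of 37 genes for other leukocytes and platelets 15 were tested and 8 had no count in any culture. Those without a count included Cd3d, Cd3e and Cd2 of T cells, Ms4a1 of B cells and Ncr1 of natural killer cells. Other lymphocyte genes did have counts, with Cd3g of T cells at 1.23 to 2.71 TPM and Lck at 1.47 to 3.94 TPM. Cd4 had 11 counts over the 6 cultures, and Pax5 and Cd79b of B cells had 28 and 25. Some genes known from neutrophils were present. S100a8 stood at 58.5, 50.6 and 63.1 TPM in wild-type 10, 12 and 16 and at 35.5, 118 and 85.7 TPM in heterozygous cultures 11, 15 and 18. Its r with the 10 genes was 0.919, and that of Camp (3.91 to 19.1 TPM) was 0.923 and that of Ltf (2.45 to 20.5 TPM) 0.914. It was lower for S100a9 (0.835), Elane (0.836) and Mpo (0.657), and the neutrophil marker Ly6g had 8 counts over the 6 cultures. The list's summed level was 201 to 232 TPM in wild-type and 167 to 429 TPM in heterozygous cultures. The platelet gene Ppbp had r = 0.08 and differed by 0.91 between the genotypes (SE 0.19, adjusted p = 0.313 by edgeR).

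Erythroid genes were mostly higher in cultures 15 to 18. Of 14 genes 13 matched and 8 were tested, 7 of them higher in cultures 15 to 18, with a median r of 0.653. Their summed level was 128 to 443 TPM in wild-type and 255 to 510 TPM in heterozygous cultures, and none of the 13 was at 0 in all cultures. Hbb-bs, an adult beta-globin gene, stood at 55.2, 39.8 and 135 TPM in wild-type 10, 12 and 16 and at 49.2, 137 and 155 TPM in heterozygous cultures 11, 15 and 18. It was higher in 15 to 18 by 1.57 on the log2 scale (SE 0.13, adjusted p = 0.0386 by edgeR). The Hbb-bs call was lost without wild-type culture 10 (adjusted p = 0.0598) or heterozygous 15 (0.0783). Fibroblast genes had a median r of -0.28, with 3 of 13 higher in cultures 15 to 18, and their summed level was 11169 to 12893 TPM in wild-type and 10699 to 11986 TPM in heterozygous cultures. Thy1, which is also found on blood cells and neurons, had r = 0.946, the only 1 of the 13 above 0.9. The part of these other cells in the levels of the 10 genes was not tested.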

How the data were processed

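Messenger RNA was sequenced from 3 wild-type and 3 heterozygous cultures, grouped by their titles. Per the file headers, each library came as 1 gene table in RSEM's format. The submitters' processing notes list RSEM 1.3.1, DESeq2 and mm10. No source used here gives the aligner, the annotation release or the strand setting. The authors deposited expected counts, which RSEM estimates and which need not be whole. They also deposited TPM, used here for levels and 2 alternative tests, and FPKM, which served no test. Effective lengths in the deposited tables served as an offset in 1 alternative.

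A symbol was found for 51633 of 51826 identifiers, and coordinates come from the GENCODE annotation of mm10. Expected counts were rounded, filtered with filterByExpr, which left 14652 genes, scaled with TMM factors and compared by the quasi-likelihood test of edgeR 4.0.16 (R 4.3.3) with genotype as the sole term. Genes with a Benjamini-Hochberg adjusted p under 0.05 passed. Each SE belongs to a fitted log2 difference, and the median over genes was 0.11. Counting variation is the inverse square root of a count and covers counting error only. DESeq2 1.42.0 and limma 3.58.1 (log2 of TPM plus 0.5 or 0.1) were alternatives, and the fits were tested on simulated counts. Library totals ran from 11025286 to 21885101. Likeness is Pearson's r of log2(TPM + 0.1) with the log2 summed TPM of the 10 genes over 6 cultures, given with no p. Genes were ranked by it among those with a mean of at least 1 TPM. That ranking left out the 10 genes, genes with no symbol, predicted genes (Gm and Rik names) and pseudogenes.

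The 10 genes and the lists were chosen with earlier results of these data known. The 10 are always named. From a list, genes past the threshold, those with the smallest p and those with the highest levels were named. Other list genes (among them Irf8, Stab1, Igf1, the neutrophil genes and genes with few or no counts) were picked after their values were seen. Ahsp had no match and was not analysed here.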

Additional observations from a re-analysis of the deposited data

How the results depend on the processing

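For the 10 genes, 0 passed in the genotype comparison under every alternative run except the first accession block alone (cultures 10, 12, 15 and 18), where 6 passed. DESeq2 gave no adjusted p for some of the 10, Adgre1 and Fcer1g among them, so those could not pass there. Of all genes 1 passed, against 112 with DESeq2, 32 with no low-count filter, 1450 in the first block, 0 with the effective length offset and 0 with limma at either pseudocount. Leaving out 1 culture gave 0 to 896, the highest without wild-type 16. Of the other macrophage genes 0 passed, against 23 in the first block, where 1450 of 14747 genes passed. With 1 culture left out 0 to 2 passed, the highest without wild-type 16, where 5.93% of all genes passed. In the first block genotype and the run of culture numbers cannot be told apart. Outside that block, the heterozygous culture lay below wild-type 16 for 10 of the 10 genes, with a median log2 difference of -0.74. That pair is 1 culture against 1. Here wild-type 16 is the culture from the higher-numbered run, so genotype and run cannot be told apart in this pair either. The count of the 10 at an unadjusted p under 0.05 between the runs, a comparison added after the values were seen, was 9, and 4 to 10 with 1 culture left out. Of all genes 2001 had such a p in either direction, and 1275 to 3224 with 1 culture left out. With the run added to the fit the genotype difference turned to -0.15 for Adgre1, -0.16 for C1qb, -0.15 for C1qc, -0.0888 for Csf1r, -0.16 for Fcer1g and -0.0996 for Lyz2. With Y-linked expression as a term it turned to -0.0589 for Adgre1, -0.0801 for C1qb, -0.0705 for C1qc and -0.0342 for Fcer1g. In the first block it turned to 0.24 for C1qa and 0.16 for Mrc1. With 1 culture left out it ran from -0.0786 to 0.31 for Adgre1, -0.18 to 0.22 for C1qa, -0.0636 to 0.39 for C1qb, -0.12 to 0.36 for C1qc, -0.0264 to 0.39 for Csf1r, -0.0551 to 0.32 for Fcer1g, -0.0881 to 0.43 for Lyz2 and -0.31 to 0.25 for Mrc1. The cause of these changes was not tested. No paired analysis was possible because the genotypes share no replicate number. With 3 cultures a group, and 71.0 counts for Ptprc in the lowest library, differences within the intervals given remain compatible with the data.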

Other observations

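Chemokine genes that recruit monocytes differed between the runs of culture numbers. Of 23 macrophage activation genes 15 were tested, 14 were higher in cultures 15 to 18 and 2 passed by edgeR, Ccl2 and Ccl7, where 0.0478% of all genes passed. Both calls were lost without wild-type culture 10 (adjusted p = 0.267 for Ccl2 and 0.170 for Ccl7), wild-type 12 (0.196 and 0.189) or heterozygous 15 (0.0783 for both), and that of Ccl2 also without wild-type 16 (0.0592). In cultures 10, 12 and 11 Ccl2 stood at 79.6, 72.0 and 83.9 TPM, and in cultures 16, 15 and 18 at 135, 172 and 147 TPM (log2 difference between the runs 0.94, SE 0.10, adjusted p = 0.0386 by edgeR). Of the inflammatory genes, Il6 was at 2.16 to 5.88 TPM, Tnf at 0.780 to 1.80 TPM, Il1b at 0.260 to 1.07 TPM and Nos2 at 3 counts over the 6 cultures. The anti-inflammatory cytokine gene Il10 had 1 count, and Retnla, a marker of alternative activation, had 0. Spp1 (326 to 470 TPM) and Apoe (379 to 525 TPM) were high.

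Class II antigen presentation genes were low. Of 7 genes 3 were tested, 1 was higher in cultures 15 to 18, and the median r was -0.46. H2-Aa was at 0.650 to 2.29 TPM and Cd74 at 2.07 to 5.52 TPM. Of 10 osteoclast genes 5 were tested. Acp5 (mean 3.69 TPM) had r = 0.951, while Ctsk (42.4 to 66.2 TPM) had r = 0.09, and Ocstamp had 16 and Dcstamp 9 counts over the 6 cultures.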
